A study of Mus musculus with 11 samples.

Results

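Mature alveolar macrophages (mAMs) that lack the retinoid X receptors RXRα and RXRβ were compared with control mAMs by RNA sequencing. The comparison rests on 7 of the 11 libraries in the deposited table, chosen by their labels: mAM_KO replicates 1 to 3 and mAM_WT replicates 1 to 4. All 12932 genes of the table were taken, and 12889 of them could be tested. Control mAMs were Cd11c Cre- Rxrab fl/fl and RXR-deficient mAMs were Cd11c Cre+ Rxrab fl/fl, so that both groups carried the floxed Rxra and Rxrb alleles. The Cd11c promoter drives Cre in alveolar macrophages and in other CD11c+ cells, which limits the model to deletion from the time Cd11c is first expressed. Mice were 9 weeks old, the study used C57BL/6J mice of both sexes with littermates as controls, the labels give no treatment, and each library is an individual biological replicate. mAMs are the SiglecF+ CD11b- cells of the lung. A further RXR-deficient library, mAM_KO replicate 4, was not used by the study. Here it stayed out of the calls, serves to check their direction, and was added in some of the alternative fits. The 3 libraries of immature alveolar macrophages (ImmAMs, SiglecF+ CD11b+) from Cd11c Cre+ Rxrab fl/fl mice entered the fit so that all groups share an estimate of the spread, and give a reference level for named genes.

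Alveolar macrophages live in the airspace, where they clear inhaled particles and the surfactant lipids and proteins that line the alveoli. RXRs are nuclear receptors that bind DNA mainly as dimers with a partner, among them PPARγ, LXRs and retinoic acid receptors, at pairs of a short half-site. With ligands these dimers switch on genes of lipid handling, and without ligand or with corepressors some of them hold target genes down. PPARγ, induced by GM-CSF, is a known determinant of the alveolar macrophage programme.

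The deposited values are CPM, read counts scaled to a common library total after adjustment of the totals by the TMM method. Reads counted per library ran from 17964528 to 23545727 in the RXR-deficient mAMs and from 19927934 to 37873532 in the controls. The 12 alveolar macrophage markers checked summed to 21247 to 27537 CPM in controls and 25796 to 31761 CPM in RXR-deficient mAMs, so these markers of the labelled cell type were abundant in every library. Each gene was tested in limma on log2 CPM (two-sided), its p was adjusted by the Benjamini-Hochberg method across the 12889 genes, and an adjusted p below 0.05 makes a call. Adjusted p below means this limma value, a fold is 2 to the power of the log2 difference, and single values are in the order of the replicate numbers. Of the 12 markers, 3 were called lower (Krt79, Fabp4 and Cidec) and 0 higher, where 2.59% and 2.25% of all genes were, with a median log2 difference of −0.20, and 5 were lower without mAM_KO replicate 2.

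A dependence on base composition has to be stated before any gene group. Among genes at 5 CPM or more, cut into 5 bins of like size by the GC content of a transcript, the median log2 difference between RXR-deficient and control mAMs was 0.15 in the bin with the lowest GC content (median 40.9%) and −0.18 in the bin with the highest (57.3%). The lowest bin held 88 genes called higher and 4 called lower, and the highest bin 17 and 174. The slope was not particular to the genotype. Relative to the mean of the controls, mAM_WT replicates 1 to 4 had medians of −0.11, 0.03, −0.09 and 0.17 in the highest bin, mAM_KO replicates 1 to 3 had −0.16, −0.17 and −0.21, and mAM_KO replicate 4 had 0.09. Counts are therefore given beside those from a second fit, called corrected below, in which each library was corrected for GC content and transcript length. This fit was added after the slope was seen. For a gene called in the first fit only, base composition and genotype cannot be told apart.

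**Figure D1:**
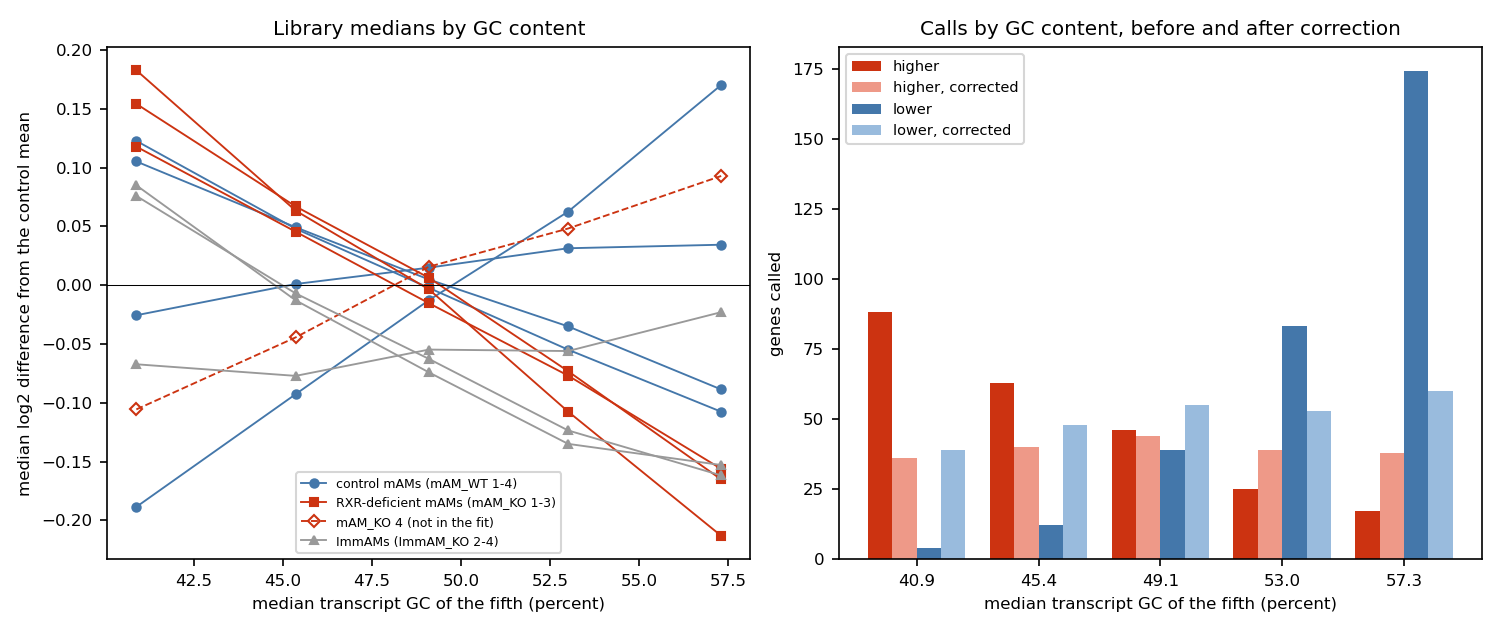
Left, median log2 difference of each library from the control mean (vertical axis) in 5 bins of genes by transcript GC content (horizontal axis, percent); points are libraries, joined by lines. The 3 RXR-deficient libraries of the fit run down from left to right with 2 of the control libraries, and mAM_KO replicate 4 (open diamonds) runs up with mAM_WT replicate 4. Right, genes called higher and lower per bin, before and after the correction for GC content and length, in which the 174 lower calls of the highest bin become 60.

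RXR-deficient mAMs differed from control mAMs in 624 of 12889 genes (4.84% of those tested), of which 290 were higher (2.25%) and 334 lower (2.59%). The higher genes moved further: their median log2 fold change was 0.73, against −0.48 for the lower ones, and 96 rose while 62 fell by a factor of 2 or more. In 607 of the 624, the 3 RXR-deficient and 4 control libraries did not overlap, as in 2588 of all genes tested (20.1%). After correction for GC content and length 236 genes were higher (1.83% of those tested) and 277 lower (2.15%), and 374 genes were called in both fits, 197 of them higher and 177 lower. The number of calls leaned on single libraries: leaving out mAM_KO replicate 3 or 1 left 162 or 212 calls, leaving out mAM_WT replicate 2, 3 or 4 left 220, 327 or 355, and leaving out ImmAM replicate 4 or 2 left 386 or 397. Of the 624 genes, 119 were called whichever library was left out, 75 of them higher and 44 lower. The calls also leaned on the ImmAM libraries as a group. A fit of only the 2 compared groups, without ImmAMs, called 195 genes, 181 of them among the 624. Within the called genes the RXR-deficient libraries were graded. mAM_KO replicate 2 was the one nearest to the controls in 204 of the 290 higher genes and in 195 of the 334 lower genes, and mAM_KO replicate 3 was the farthest in 164 and in 183. These genes were called with the same libraries. Over the 1000 most variable genes replicate 2 was not the nearest. There the root-mean-square log2 distances to the control libraries were 2.29 to 2.57, 2.36 to 2.63 and 2.43 to 2.8 for mAM_KO replicates 1 to 3.

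mAM_KO replicate 4 lay on the same side of the control mean as the fit in 255 of the 290 genes called higher (87.9%) and in 237 of the 334 called lower (71.0%), and beyond every control library in 214 (73.8%) and 173 (51.8%). Over all 12889 genes it lay on the fitted side in 51.7% and beyond the control range on that side in 24.9%. On values corrected for GC content and length, 92.7% of genes called higher and 83.5% of genes called lower lay on the same side, against 59.9% of all genes. These shares use the same control libraries as the calls.

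**Figure D2:**
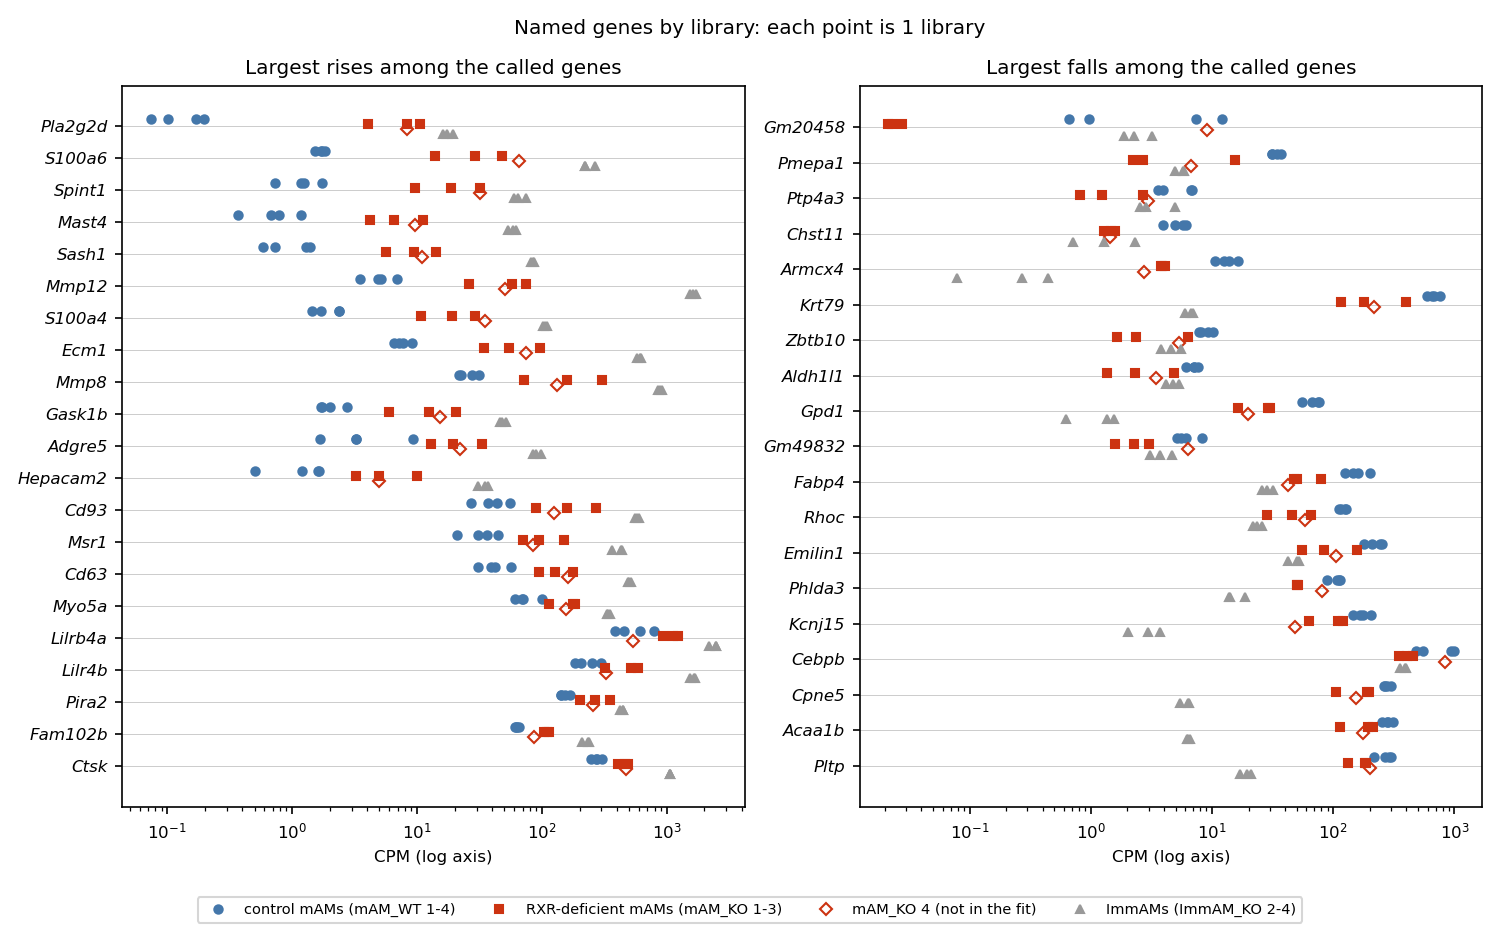
CPM on a log axis (horizontal) of the 21 genes with the largest rises and 19 of those with the largest falls (rows), chosen among called genes whose libraries do not overlap, at group means of at least 5 CPM and of at least 100 CPM. Each point is 1 library: circles are control mAMs, squares RXR-deficient mAMs, open diamonds mAM_KO replicate 4 and triangles ImmAMs. In the rises ImmAMs lie above the RXR-deficient mAMs; in the falls their place differs from gene to gene.

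The deleted genes were first looked at in every library. Rxra (ENSMUSG00000015846, chromosome 2, 27676440 to 27762957, GRCm38) was at 310.2, 352, 336 and 379.5 CPM in control mAMs and at 347, 334 and 351 CPM in RXR-deficient mAMs, with 419 CPM in mAM_KO replicate 4. The groups overlapped (two-sided exact permutation test, n = 4 and 3, p = 1). Rxrb (ENSMUSG00000039656, chromosome 17, 34031812 to 34038399) was at 54.0, 61.5, 51.4 and 72.1 CPM against 46.3, 52.8 and 39.3 CPM, again with overlap (exact permutation test, p = 0.114, where the smallest p possible is 0.0286). A value over the whole gene also counts the exons that a deletion leaves, so these values are no check of the deletion. Pparg, the partner best known in these cells, was at 201, 196, 219.7 and 174 CPM in controls and 219, 233 and 224 CPM in RXR-deficient mAMs and was not called (adjusted p = 0.135). Of 24 RXR and partner receptor genes tested, 1 was called higher and 2 lower, and 2 and 1 in the corrected fit. The first-fit shares were 4.17% and 8.33%, against 2.25% and 2.59% of all genes. The higher call was lost when mAM_WT replicate 3 or 4, mAM_KO replicate 1 or 3 or any 1 ImmAM library was left out. Lower calls numbered 0 without mAM_WT replicate 2, 3 without mAM_WT replicate 1, 2 without mAM_KO replicate 2 and 1 without any other library. Rarb, a retinoic acid receptor gene, was at 0.0188 to 0.141 CPM in controls and at 0.485, 0.404 and 0.748 CPM in RXR-deficient mAMs (adjusted p = 0.0387), a level of few reads. Nr4a1, an immediate early receptor gene, fell by 0.81 on the log2 scale (adjusted p = 0.0396) but was not called in the corrected fit (adjusted p = 0.0939).

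The genes with the largest rises included secreted and calcium-binding proteins. Pla2g2d (ENSMUSG00000041202), which encodes a secreted phospholipase A2 known for making anti-inflammatory lipid mediators, was at 0.0737 to 0.198 CPM in control mAMs and at 8.29, 4.01 and 10.5 CPM in RXR-deficient mAMs (log2 fold change 5.81, SE 0.42, adjusted p = 4.39e-05). S100a6 was at 1.52 to 1.83 CPM against 29.2, 13.9 and 48.1 CPM (3.99, SE 0.29, adjusted p = 4.39e-05). S100a4, like S100a6 a small calcium-binding protein, was at 1.45 to 2.39 CPM against 19.1, 10.7 and 28.9 CPM (3.22, SE 0.28, adjusted p = 0.000111). For all 3 genes the groups were far apart, and mAM_KO replicate 2 was the lowest RXR-deficient library. In mAM_KO replicate 4, S100a6 was at 64.9 CPM and S100a4 at 35.3 CPM, above the other RXR-deficient libraries. S100a6 and S100a4 were the 2 called among 17 S100 and annexin genes tested (11.8%, against 2.25% of all genes called higher). Of the 60-base windows of S100a4 transcripts, 46.4% also occur in another annotated gene, so its reads are uncertain. Elovl7, a fatty acid elongase, and Fbp1, of gluconeogenesis, rose from near 0: Elovl7 was at 1.22, 0.701 and 2.08 CPM against 0.0132 to 0.244 CPM (adjusted p = 0.0175), and Fbp1 had 0 reads in every control library and 0.531, 1.17 and 3.46 CPM in RXR-deficient mAMs, at least 57.8-fold higher against 3 reads over the controls.

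Single genes of matrix breakdown rose. Of 24 proteases and inhibitors of the extracellular matrix tested, 6 were called higher and 0 lower in both fits, 18 were not called and 9 estimates were below 0. The share called higher was 25.0%, against 2.25% of all genes. The median of the list was 0.12 against −0.00 over all genes. Mmp12, the macrophage elastase, was at 6.93, 4.89, 5.12 and 3.51 CPM in control mAMs and at 58.1, 26.1 and 74.2 CPM in RXR-deficient mAMs, a 9.71-fold difference (adjusted p = 0.000111). Mmp8, a collagenase, was at 27.7, 31.2, 21.5 and 22.6 CPM against 158, 72.3 and 303 CPM, a 5.95-fold difference (adjusted p = 0.00197). Every RXR-deficient library was above every control for both genes, and the spread among the RXR-deficient libraries was wide. Mmp2 and Adam8 rose from levels under 1 CPM, and Plau, the urokinase that activates plasminogen, rose 1.76-fold (adjusted p = 0.0197). Spint1, an inhibitor of serine proteases at the cell surface, rose 15.4-fold, from 0.727 to 1.75 CPM in controls to 18.7, 9.71 and 32.1 CPM. Outside this list, Ctsk, a lysosomal protease that degrades collagen, was at 273, 277, 303 and 245 CPM against 464, 409 and 489 CPM (adjusted p = 0.000748), and Ecm1, a glycoprotein of the extracellular matrix, rose 7.50-fold to 55.0, 34.7 and 97.3 CPM. Without mAM_KO replicate 1 or 3, 3 members of the list were called. Mmp12, Mmp8, Spint1, Ctsk and Ecm1 were called whichever library was left out.

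The regions before the start sites of S100a4, Mmp8 and Mmp12, which rose, and of Rhoc, which fell, are shown as examples. These genes were chosen together with the motif to mark in each, and other genes with large changes are not shown. Each run holds the 250 bases before the first RefSeq start site of the gene, 5′ to 3′ on the gene's strand (plus for all 4), GRCm38.p6. Capitals mark AGGTCA, the half-site that RXR and its partners read, or GAGGAAGT, a core that PU.1 reads, on either strand.
S100a4 chr3:90603520-90603769: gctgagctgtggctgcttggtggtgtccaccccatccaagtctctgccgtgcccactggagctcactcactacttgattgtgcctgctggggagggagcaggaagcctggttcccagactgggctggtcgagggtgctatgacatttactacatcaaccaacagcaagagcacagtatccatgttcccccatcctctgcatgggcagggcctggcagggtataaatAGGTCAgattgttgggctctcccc
Mmp8 chr9:7558179-7558428: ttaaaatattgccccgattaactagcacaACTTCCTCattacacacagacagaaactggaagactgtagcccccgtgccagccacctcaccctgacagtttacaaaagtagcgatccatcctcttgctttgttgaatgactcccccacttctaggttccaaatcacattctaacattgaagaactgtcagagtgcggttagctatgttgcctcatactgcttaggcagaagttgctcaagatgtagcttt
Mmp12 chr9:7344147-7344396: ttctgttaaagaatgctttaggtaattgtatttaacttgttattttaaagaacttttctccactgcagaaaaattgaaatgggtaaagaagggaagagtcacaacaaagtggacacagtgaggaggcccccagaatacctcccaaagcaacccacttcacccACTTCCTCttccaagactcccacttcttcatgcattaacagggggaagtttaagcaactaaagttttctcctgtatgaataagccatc
Rhoc chr3:104788784-104789033: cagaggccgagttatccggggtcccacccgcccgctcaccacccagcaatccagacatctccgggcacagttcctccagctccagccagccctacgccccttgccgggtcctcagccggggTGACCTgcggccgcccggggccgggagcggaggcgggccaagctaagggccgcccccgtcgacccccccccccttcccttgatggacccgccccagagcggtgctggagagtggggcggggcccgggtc
S100a4 holds a half-site 24 bases before its start and Rhoc one 129 bases before, on the other strand. The PU.1 core lies 221 bases before the start of Mmp8 and 88 before that of Mmp12. Of the genes tested, 9433 matched a RefSeq promoter by symbol. AGGTCA was found in 10.7% of these windows, in 8.53% of those of genes called higher and in 9.47% of those called lower. Of the pairs of half-sites, DR1 (AGGTCANAGGTCA) was in 4 windows and in none of a called gene, and DR4, with 4 bases between the half-sites, was in 0 windows. GAGGAAGT was in 2.77% of all windows, in 12 of 211 of genes called higher (5.69%) and in 7 of 264 called lower (2.65%). These are matches of letters in a short window and not binding sites.

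Enzymes and receptors of arachidonic acid and of platelet-activating factor (PAF) changed in both directions. Of 29 genes of eicosanoids and phospholipases A2 tested, 6 were called higher and 3 lower, as many as in the corrected fit. By share this was 20.7% and 10.3%, against 2.25% and 2.59% of all genes. Beside Pla2g2d, Ptgs1, the constitutive cyclooxygenase that makes the prostaglandin precursor, was at 13.2, 17.3, 18.9 and 15.1 CPM in controls and at 51.7, 30.7 and 74.6 CPM in RXR-deficient mAMs, a 3.07-fold rise (adjusted p = 0.00272). Ptgir, the receptor for prostacyclin, was at 12.5, 12.1, 17.4 and 11.8 CPM against 45.4, 29.8 and 55.3 CPM (3.18-fold, adjusted p = 0.000773). Hpgd, which inactivates prostaglandins, rose 3.73-fold to 7.69, 5.88 and 14.4 CPM (adjusted p = 0.00411). Every RXR-deficient library exceeded every control library for these 3 genes, and mAM_KO replicate 4 did too, at 64.6, 56.1 and 7.45 CPM. Lpcat2, which makes PAF, was at 40.4, 17.1 and 31.9 CPM against 10.5 to 14 CPM (adjusted p = 0.0172), and Ptafr, the PAF receptor, at 33.2, 20.3 and 39.8 CPM against 14.6 to 18.1 CPM (adjusted p = 0.0189). The called genes of the leukotriene branch were lower. Alox5, the 5-lipoxygenase, fell by 0.32 on the log2 scale (341, 310.0 and 285 CPM against 353 to 418 CPM, adjusted p = 0.0398), and Ltc4s, the leukotriene C4 synthase, by 0.58 (85.7, 92.6 and 64.0 CPM against 98.1 to 147 CPM, adjusted p = 0.0420). In mAM_KO replicate 4 these were at 401 and 158 CPM, within or above the controls, and Ltc4s was not called in the corrected fit (adjusted p = 0.0840). Ptges, a prostaglandin E synthase, fell by 0.75 (adjusted p = 0.0167). The higher calls were 4 without mAM_KO replicate 1 or 3. The lower calls were 0 without mAM_KO replicate 3 and 1 without mAM_KO replicate 1, mAM_WT replicate 2, 3 or 4, or ImmAM replicate 2 or 4.

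Some receptors that bind immunoglobulins, sugars and apoptotic or modified-lipid cargo rose. Of 36 Fc receptors and lectins tested, 9 were called higher and 2 lower, and 8 and 1 in the corrected fit, with 3 higher without mAM_KO replicate 1 or 3. In the first fit these were 25.0% and 5.56%, against 2.25% and 2.59% of all genes. Fcgr3, an activating Fcγ receptor, was at 364, 397, 294 and 348 CPM in controls and 504, 491 and 597 CPM in RXR-deficient mAMs (adjusted p = 0.00683). The inhibitory Fcgr2b was at 170.1, 146, 111 and 151 CPM against 234, 167 and 306 CPM, where mAM_KO replicate 2 fell among the controls (adjusted p = 0.0430, and 0.0710 in the corrected fit). Cd33 was at 289 to 445 CPM against 625, 521 and 629 CPM (adjusted p = 0.00846). Cd300a, another inhibitory receptor, was at 62.8 to 83.7 CPM against 108, 94.1 and 140.0 CPM (adjusted p = 0.0199). Clec4d, a C-type lectin for microbial glycolipids, rose to 35.1, 34.1 and 39.5 CPM from 18.0 to 26.0 CPM (adjusted p = 0.00413). The paired receptors Lilrb4a, Lilr4b and Pira2 rose 2.02-fold, 1.99-fold and 1.77-fold. Their transcripts share sequence with other genes, in 43.6%, 20.3% and 91.2% of 60-base windows, so that how the rise divides between them is uncertain. Lilrb4a was at 533 CPM in mAM_KO replicate 4, within the control range of 387 to 786 CPM. The 2 falls of this list, Fcgrt, the neonatal Fc receptor that recycles IgG, and Lgals1, a galectin, were not called in the corrected fit. Lower calls numbered 1 without mAM_WT replicate 4 and 0 without mAM_WT replicate 2 or 3, mAM_KO replicate 1 or 3 or any 1 ImmAM library.

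Of 27 genes of the uptake of apoptotic cells tested, 5 were called higher and 1 lower, with 3 higher without mAM_KO replicate 1 or 3. By share this was 18.5% and 3.70%, where 2.25% and 2.59% of all genes were called. Msr1, a scavenger receptor for modified lipoproteins, was at 44.3, 30.5, 36.4 and 20.8 CPM in controls and at 94.9, 70.4 and 150.5 CPM in RXR-deficient mAMs (3.15-fold, adjusted p = 0.00454). Mfge8, the bridge to phosphatidylserine on dying cells, was at 8.23, 8.83, 7.71 and 7.44 CPM against 21.4, 11.7 and 15.8 CPM (adjusted p = 0.00947). Trem2, a receptor for lipids and apoptotic cells, was at 32.7, 37.3, 35.5 and 40.2 CPM against 63.8, 49.8 and 81.1 CPM (1.75-fold, adjusted p = 0.00679). No control library reached the level of an RXR-deficient library in these 3 genes, and mAM_KO replicate 4 had 84.6, 23.8 and 93.0 CPM. Scarb1, a receptor for high-density lipoprotein and phosphatidylserine, fell by 0.50 on the log2 scale (102, 121 and 97.8 CPM against 142 to 160.5 CPM, adjusted p = 0.00701). Outside the list, Cd93, a C-type lectin-like receptor of adhesion, was at 27.1, 43.4, 55.7 and 36.9 CPM against 158, 90.2 and 271 CPM (3.98-fold, adjusted p = 0.00419). Of 57 lysosomal genes 3 were called higher and 0 lower: Ctsk, Gpnmb and Cd63. Cd63, a tetraspanin of lysosomes and exosomes, rose 3.12-fold to 128, 94.8 and 177 CPM (adjusted p = 0.00168). The median of the lysosomal list was 0.05, and the other 54 members were not called. Over the whole list 5 were called higher and 2 lower without mAM_WT replicate 1, and 6 higher without mAM_KO replicate 2.

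Other immune gene lists had few calls by number, where 2.25% of all genes were called higher and 2.59% lower. The share called higher was 17.9% of the integrin and adhesion list and 18.8% of complement, but 2.27% of the interferon-stimulated genes. Of 28 integrin and adhesion genes 5 were called higher, and 3 in the corrected fit, with 1 without mAM_KO replicate 3, 2 without mAM_KO replicate 1 or mAM_WT replicate 2, and 3 without mAM_WT replicate 3 or 4 or any 1 ImmAM library. Itgb7, an integrin chain of mucosal leukocytes, was at 4.55, 2.23 and 5.51 CPM against 0.469 to 1.11 CPM (adjusted p = 0.00470), and Cdh1, which encodes E-cadherin, was at 139, 86.9 and 125 CPM against 66.0 to 74.9 CPM (adjusted p = 0.0122). Of 16 complement genes 3 were called higher, among them Itgam and C4b, a gene of the classical pathway, which was at 8.79, 5.63 and 7.78 CPM against 2.03 to 4.98 CPM (adjusted p = 0.0173) and shares 29.0% of its 60-base windows with other genes. That count was 1 when any 1 of mAM_KO replicates 1 and 3 and mAM_WT replicate 2 was left out. Of 44 interferon-stimulated genes 1 was called higher, Slfn8, and of 35 Toll-like receptor genes 1 was higher, Tlr3 (adjusted p = 0.00787), and 1 lower, Myd88 (adjusted p = 0.0311). The interferon-stimulated count was 4 without mAM_WT replicate 1 and 2 without mAM_KO replicate 2. The Toll-like receptor list had 2 higher without mAM_WT replicate 1 or mAM_KO replicate 2, 2 lower without mAM_WT replicate 1, and 0 lower without mAM_WT replicate 2 or mAM_KO replicate 1 or 3. Of 37 genes of cytokines and their receptors 2 were called higher and 1 lower, Tgfb1. Ifngr1, a receptor chain for interferon-γ, was at 199, 204 and 209 CPM against 136 to 171 CPM (adjusted p = 0.00842), and Csf1, a macrophage growth factor, at 4.22, 1.34 and 3.19 CPM against 0.824 to 1.35 CPM, where mAM_KO replicate 2 overlapped with the controls (adjusted p = 0.0381). The cytokine count was 1 higher without mAM_KO replicate 1 or 3, mAM_WT replicate 2 or 3, or any 1 ImmAM library, 4 without mAM_WT replicate 1 and 6 without mAM_KO replicate 2. Its lower call was lost without mAM_WT replicate 2 or 4 or mAM_KO replicate 3.

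**Figure D3:**
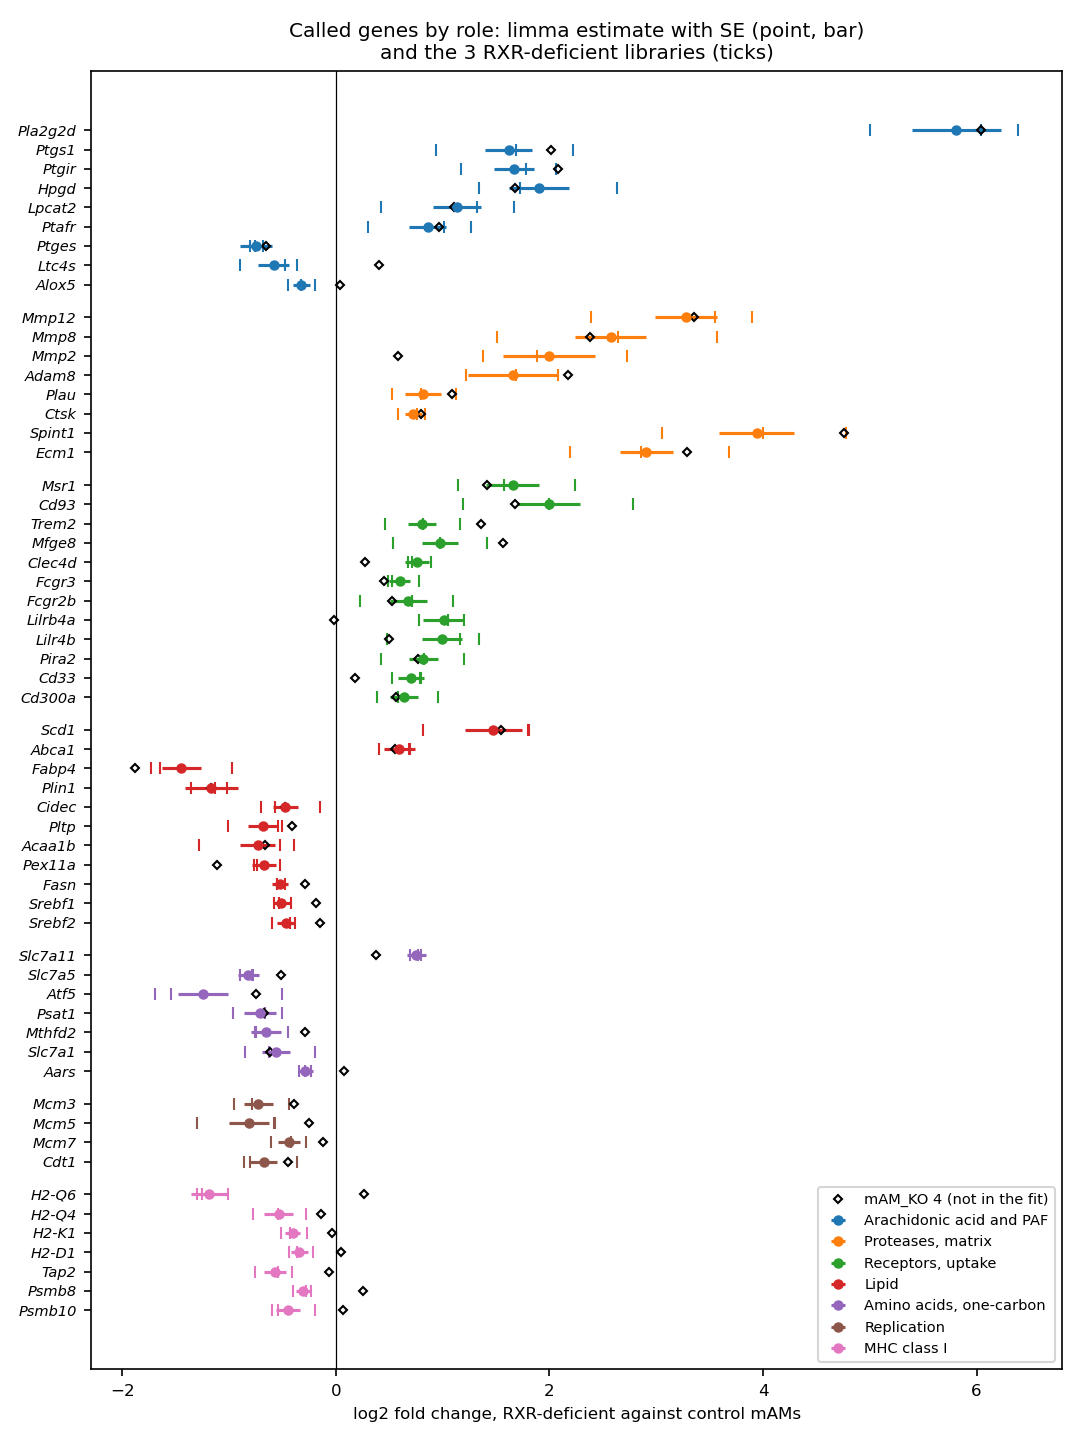
Log2 fold change between RXR-deficient and control mAMs (horizontal axis) of selected called genes grouped by role (rows and colours). Points are limma estimates with their SE, ticks the 3 RXR-deficient libraries and open diamonds mAM_KO replicate 4, all against the control mean. Estimates for the proteases and receptors shown lie above 0, and those for replication and MHC class I genes below 0. For 4 of the 7 MHC class I genes mAM_KO replicate 4 lies above 0. The protease and receptor groups were chosen among genes that rose, and the replication and MHC class I groups among genes that fell. Their shared direction follows from that choice. Emilin1, Scarb1, Fcgrt and Lgals1, which were called lower, are not shown.

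Lipid genes moved in both directions. Of 27 PPAR targets tested, 0 were called higher and 5 lower (median −0.20), and 1 and 5 in the corrected fit. In the first fit the 5 lower were 18.5% of the list, where 2.59% of all genes were called lower. The lower count was 2 without mAM_WT replicate 2 or 3, 3 without mAM_WT replicate 4 or mAM_KO replicate 1 or 3, and 9 without mAM_KO replicate 2. Fabp4, a fatty acid binding protein that PPARγ induces, was at 161, 147, 203 and 126 CPM in controls and at 50.2, 79.9 and 47.3 CPM in RXR-deficient mAMs, with 42.7 CPM in mAM_KO replicate 4, and fell by 1.45 on the log2 scale (SE 0.18, adjusted p = 0.00183). Pex11a, which promotes the division of peroxisomes, fell by 0.68 (37.5, 38.2 and 44.4 CPM against 56.0 to 68.5 CPM, adjusted p = 0.00770). Every RXR-deficient library was below every control for both. Plin1 and Cidec, proteins of the lipid droplet surface, fell by 1.17 (adjusted p = 0.0234) and 0.47 (adjusted p = 0.0420), and Cidec was not called in the corrected fit (adjusted p = 0.105). Outside the list, Gpd1, which makes the glycerol backbone of triglycerides, was at 55.7, 66.8, 75.8 and 74.2 CPM against 29.1, 29.9 and 16.5 CPM (adjusted p = 0.0164). Of 47 genes of fatty acid oxidation 0 were called higher and 5 lower, and 1 and 3 in the corrected fit, and 34 of the 47 estimates were below 0. The lower ones were Acaa1b, Acaa1a and Acox3, which are peroxisomal enzymes, with Ech1 and Pex11a. Acaa1a and Acaa1b share 11.1% and 27.3% of their windows with other genes. The lower count was 2 without mAM_KO replicate 3 or mAM_WT replicate 2, 3 or 4, and 3 without mAM_KO replicate 1.

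Genes read by LXR-RXR dimers were divided between rises and falls. Of 24 LXR targets and genes of cholesterol efflux tested 3 were called higher and 4 lower, and 1 and 6 in the corrected fit. The first fit thus called 12.5% and 16.7% of them, against 2.25% and 2.59% of all genes. Abca1, the exporter of cholesterol to lipid-poor apolipoproteins, was at 149, 196, 258 and 173 CPM in controls and at 308, 251 and 305 CPM in RXR-deficient mAMs, with mAM_KO replicate 2 inside the control range (adjusted p = 0.0388, and 0.0717 in the corrected fit). Scd1, the desaturase that makes oleate, was at 9.81, 9.51, 17.7 and 8.37 CPM against 37.8, 19.1 and 37.9 CPM (2.78-fold, adjusted p = 0.0108), above every control. Soat1, which esterifies cholesterol, was called at 0.24 on the log2 scale (adjusted p = 0.0461) but not in the corrected fit (adjusted p = 0.163). The higher count was 0 without mAM_KO replicate 1 or 3, and 1 without mAM_WT replicate 2 or 4 or any 1 ImmAM library. Fasn, the fatty acid synthase, fell by 0.53 (71.9, 75.7 and 71.6 CPM against 99.6 to 112 CPM, adjusted p = 0.00296). Srebf1, the factor that drives fatty acid synthesis, fell by 0.51 (99.9, 92.4 and 89.8 CPM against 120.0 to 148 CPM, adjusted p = 0.00558), and Pltp, which transfers phospholipids between lipoproteins, by 0.69 (adjusted p = 0.0172). Scd1 was thus higher while Fasn and Srebf1 of the same pathway were lower. Srebf2, the factor of cholesterol synthesis, fell by 0.47 (122, 126 and 109 CPM against 146 to 172 CPM, adjusted p = 0.0114). Of 25 genes of cholesterol synthesis 24 estimates were below 0 (median −0.23) and 2 were called lower, 1 without mAM_KO replicate 1 or 3 and 8 without mAM_KO replicate 2.

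Some genes of amino acid uptake and of serine and one-carbon metabolism fell. Of 26 ATF4 and serine-folate genes tested, 1 was called higher and 6 lower, and 1 and 5 in the corrected fit, while 19 were not called and 5 estimates were above 0. The first-fit shares were 3.85% and 23.1%, against 2.25% and 2.59% of all genes. The lower count was 1 without mAM_KO replicate 1 and 2 without mAM_KO replicate 3 or mAM_WT replicate 2 or 3. Slc7a5, which carries leucine and other large neutral amino acids into the cell, was at 77.1, 74.3, 75.4 and 79.7 CPM in controls and at 44.8, 44.4 and 41.3 CPM in RXR-deficient mAMs, with 53.8 CPM in mAM_KO replicate 4 (adjusted p = 0.00126). Atf5, a stress-response factor, fell by 1.25 on the log2 scale (10.1, 20.7 and 9.11 CPM against 23.1 to 34.4 CPM, adjusted p = 0.0146). Psat1, of serine synthesis, and Mthfd2, of mitochondrial folate metabolism, fell by 0.71 (adjusted p = 0.0230) and 0.65 (adjusted p = 0.0234), and Slc7a1, a carrier of arginine, by 0.56 (adjusted p = 0.0355). The member that rose, Slc7a11, which exchanges cystine for glutamate, was at 64.5, 58.5, 48.2 and 54.4 CPM against 97.3, 90.8 and 95.7 CPM (adjusted p = 0.00129). Of 48 solute carriers 6 were called higher and 7 lower, and 4 and 5 in the corrected fit, with as few as 1 higher without mAM_KO replicate 3 and 2 lower without mAM_KO replicate 3 or mAM_WT replicate 2 or 3. Slc16a1, a carrier of lactate, fell by 0.70 (adjusted p = 0.0311), and Slc40a1, the iron exporter ferroportin, was at 15.0, 20.3 and 20.9 CPM against 11.4 to 12.8 CPM (adjusted p = 0.0175), though not called in the corrected fit (adjusted p = 0.0518).

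Some genes of DNA replication fell and those of mitosis were not called. Over all genes 2.25% were called higher and 2.59% lower, and 49.7% of estimates were above 0. Of 48 genes of the S phase tested 0 were called higher and 4 lower in each fit, and 43 of the 48 estimates were below 0 (median −0.32). Mcm3, a subunit of the replicative helicase, was at 64.0, 71.8, 92.2 and 74.8 CPM in controls and at 43.6, 55.3 and 38.7 CPM in RXR-deficient mAMs (adjusted p = 0.0128). Its partners Mcm5 and Mcm7 fell by 0.82 (adjusted p = 0.0314) and 0.44 (adjusted p = 0.0343) on the log2 scale, and Cdt1, which loads the helicase, by 0.68 (adjusted p = 0.0146). The count was 0 without mAM_KO replicate 3, 1 without mAM_KO replicate 1, 2 without mAM_WT replicate 2 or 3, 8 without mAM_WT replicate 1 and 7 without mAM_KO replicate 2. Of 62 mitotic genes 0 were called (median −0.18, 53 estimates below 0) and of 61 DNA repair genes 0 were called (median −0.04). Of 74 nuclear-encoded genes of the respiratory chain 3 were called lower (4.05%, near the share of all genes) and 0 higher. Their median was −0.17, and −0.10 in the corrected fit. The lower count was 10 without mAM_WT replicate 1, 6 without mAM_KO replicate 2 and 1 without mAM_WT replicate 3 or 4 or ImmAM replicate 2. It was 0 without mAM_WT replicate 2 or mAM_KO replicate 1 or 3. Of 77 cytosolic ribosomal protein genes 0 were called (median −0.18, and −0.11 in the corrected fit), but 18 were called lower without mAM_WT replicate 1. Of 33 p53 targets 6 were called higher and 1 lower, and 3 and 1 in the corrected fit, with 2 higher without mAM_KO replicate 1 or mAM_WT replicate 2, 3 or 4, and 3 without mAM_KO replicate 3 or any 1 ImmAM library. Zmat3, which encodes a p53-induced RNA-binding protein, was at 38.0, 35.0 and 40.1 CPM against 23.2 to 25.6 CPM (adjusted p = 0.00202). Phlda3, a p53-induced gene of a pleckstrin homology domain protein, was the member that fell: it was at 88.9, 115, 112 and 108 CPM in controls and at 49.8, 49.9 and 50.7 CPM in RXR-deficient mAMs (adjusted p = 0.000659), but at 80.2 CPM in mAM_KO replicate 4.

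Some MHC class I genes fell. Of 24 genes of MHC class I and the immunoproteasome tested, 0 were called higher and 7 lower, and 0 and 4 in the corrected fit, while 17 were not called and 7 estimates were above 0. In the first fit 29.2% were called lower, against 2.59% of all genes. The list summed to 6226 to 6823 CPM in controls and to 5658, 6295 and 6036 CPM in RXR-deficient mAMs, where mAM_KO replicate 2 overlapped with the controls. The lower count was 3 when mAM_KO replicate 1 or 3, or mAM_WT replicate 2 or 4, was left out, and 4 without mAM_WT replicate 3 or ImmAM replicate 2 or 4. H2-K1, a classical class I heavy chain, was at 661, 673, 622 and 667 CPM in controls and at 459.8, 544 and 486 CPM in RXR-deficient mAMs (adjusted p = 0.00848), and Tap2, of the peptide transporter, at 97.5, 99.5, 98.1 and 104 CPM against 68.3, 75.0 and 59.1 CPM (adjusted p = 0.00974). H2-Q6, a non-classical class I gene with 25.3% of its windows in other genes, was at 25.6, 17.4, 16.6 and 16.3 CPM against 7.82, 9.28 and 7.56 CPM (adjusted p = 0.00344). In mAM_KO replicate 4 these 3 genes were at 637, 95.7 and 22.4 CPM, inside the control range for H2-K1 and H2-Q6 and just under it for Tap2. Rxrb, 1 of the floxed genes, lies in the same region of chromosome 17. Within 2 Mb of Rxrb, 144 genes were tested, of which 3 were called higher and 13 lower (9.03% lower), with a median of −0.17. In the corrected fit 2 were higher and 5 lower, with a median of −0.05, and the median GC content of these genes was 54.7% against 49.0% over all genes. Within 2 Mb of Rxra 1 of 51 was called higher and 3 lower. These windows were chosen after the values were seen, and the part of the genetic background around the floxed alleles in these values was not tested.

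Of 49 alveolar macrophage identity genes tested 1 was called higher and 9 lower, and 2 and 8 in the corrected fit. The first-fit shares were 2.04% and 18.4%, against 2.25% and 2.59% of all genes. The lower count was 3 without mAM_WT replicate 2, 4 without mAM_KO replicate 3, 5 without mAM_KO replicate 1, mAM_WT replicate 4 or ImmAM replicate 4, and 14 without mAM_KO replicate 2. Krt79, a keratin gene that marks these cells, was at 594, 759, 648 and 683 CPM in controls and at 181, 402 and 116 CPM in RXR-deficient mAMs (3.28-fold lower, adjusted p = 0.00820). Cpne5 and Krt19 also fell, by 0.81 and 0.66 on the log2 scale. The other 39 identity genes were not called, and the median of the list was −0.10. Not all identity genes fell: Mmp8, Ctsk and Cdh1, which the study counts among the core genes of these cells, were called higher, with values given above. Of 46 myeloid lineage factors tested 3 were called higher (6.52%) and 2 lower (4.35%), and 2 and 2 in the corrected fit. The lower count was 0 without mAM_WT replicate 2 or mAM_KO replicate 3. It was 1 without mAM_WT replicate 4, mAM_KO replicate 1 or any 1 ImmAM library. The higher count was 4 without mAM_WT replicate 1 or mAM_KO replicate 2 and 1 without any other library. Among the regulators of the lineage, Spi1, which encodes PU.1, fell by 0.46 (353, 368 and 319 CPM against 416 to 537 CPM, adjusted p = 0.0157), but mAM_KO replicate 4 was at 469 CPM, inside the control range. Cebpb, which encodes C/EBPβ, was at 553, 939, 486 and 987 CPM in controls and at 403, 458 and 346 CPM in RXR-deficient mAMs (adjusted p = 0.0462). It was at 833 CPM in mAM_KO replicate 4 and was not called in the corrected fit (adjusted p = 0.0741), and the GC content of its transcript is 67.2%. Irf4, a factor of alternative activation, rose 1.99-fold to 13.3, 10.5 and 16.8 CPM (adjusted p = 0.0114).

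Genes of cytokine and growth factor signalling changed in single members. Il3ra, a receptor subunit for IL-3, fell by 1.24 on the log2 scale (8.05, 10.6 and 7.67 CPM against 16.5 to 24.8 CPM, adjusted p = 0.00274). Socs3, a feedback inhibitor of cytokine receptors, rose 2.09-fold (adjusted p = 0.0187). Stat5a, which acts downstream of GM-CSF, fell by 0.51 (adjusted p = 0.0214, and 0.0568 in the corrected fit). Of 25 genes of colony-stimulating factor receptors and STAT5 signalling 2 were called higher and 2 lower. The higher count was 0 without mAM_WT replicate 2 or mAM_KO replicate 1 or 3, and 1 without mAM_WT replicate 4 or any 1 ImmAM library, and the lower count was 1 without mAM_KO replicate 3. Pmepa1, a TGF-β target that damps SMAD signalling, was at 31.3, 31.3, 34.4 and 37.3 CPM in controls and at 2.70, 15.4 and 2.24 CPM in RXR-deficient mAMs (log2 fold change −2.88, SE 0.48, adjusted p = 0.00811), with 6.71 CPM in mAM_KO replicate 4. No RXR-deficient library reached a control, and mAM_KO replicate 2 was again the nearest. Tgfb1 itself fell by 0.41 (adjusted p = 0.0253), and of 34 genes of TGF-β signalling 1 was called higher and 2 lower, and 0 and 2 in the corrected fit. In the first fit this was 2.94% and 5.88%, against 2.25% and 2.59% of all genes. The higher count was 2 without mAM_WT replicate 1, 3 without mAM_KO replicate 2 and 0 without any other library. Without mAM_WT replicate 2 or 4 or mAM_KO replicate 3, 1 member was called lower.

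The remaining large falls were in genes of the cytoskeleton, membrane and matrix. Rhoc, a small GTPase of cell migration, was at 112, 127, 124 and 115 CPM in controls and at 45.6, 65.4 and 28.7 CPM in RXR-deficient mAMs, with 59.0 CPM in mAM_KO replicate 4 (2.71-fold lower, adjusted p = 0.00272). Emilin1, a glycoprotein of elastic fibres, was at 181 to 252 CPM against 55.7, 157 and 83.7 CPM (adjusted p = 0.0175), and Kcnj15, an inwardly rectifying potassium channel, at 146 to 207 CPM against 63.5, 119.8 and 110.5 CPM (adjusted p = 0.0484). Chst11, a sulfotransferase for chondroitin, fell by 1.83 on the log2 scale to 1.45, 1.3 and 1.58 CPM (adjusted p = 0.0165). Every RXR-deficient library of these 4 genes was below every control, and the RXR-deficient libraries were closest together for Chst11. Gm20458 had 0 reads in mAM_KO replicates 1 to 3 and 482 reads over the controls, at least 92.6-fold lower against 3 reads over the group. Its control libraries were split, at 0.964, 7.34, 0.657 and 12.2 CPM, mAM_KO replicate 4 was at 9.003 CPM, and 95.8% of its windows occur in other genes.

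Markers of other cells were read beside these results. Over all genes 2.25% were called higher and 2.59% lower. None of the 5 markers listed for each of T cells, NK cells, alveolar type 2, endothelial cells and fibroblasts is among the 12932 genes analysed. The 5 interstitial macrophage markers found, of 7, summed to 1.07 to 2.31 CPM in controls and 3.55 to 11.2 CPM in RXR-deficient mAMs, against 288 to 313 CPM in ImmAMs. The 1 called was Cx3cr1, the fractalkine receptor, at 4.69, 1.51 and 8.34 CPM against 0.583 to 1.10 CPM (adjusted p = 0.0164), and its call was lost without mAM_KO replicate 1 or 3. The 3 monocyte markers found, of 5, which include Cx3cr1, summed to 9.99 to 15.3 CPM against 15.2 to 31.6 CPM, with 200 to 207 CPM in ImmAMs. The 4 neutrophil markers found, of 6, summed to 6.38 to 11.2 CPM against 10.7 to 14.2 CPM, and the 3 erythroid markers found, of 5, to 2.95 to 9.55 CPM against 0.53 to 2.27 CPM, with 0 called in either list. Of 37 monocyte and interstitial macrophage genes 6 were called higher (Trem2, Gpnmb, Itgam, Cx3cr1, S100a4 and S100a6) and 1 lower (Lgals1), with 3 higher without mAM_KO replicate 1 or 3, and the lower call held in 2 of the 10 fits that leave out a library. Itgam, which encodes the CD11b by which mAMs and ImmAMs were gated apart, was at 3.58, 3.52, 3.55 and 3.85 CPM in controls, 7.87, 3.93 and 9.95 CPM in RXR-deficient mAMs and 170.3 CPM on average in ImmAMs (adjusted p = 0.0479 between the mAMs, where 65.9% of its windows occur in other genes). Itgam was not called in the corrected fit (adjusted p = 0.0568), and its call held in 1 of the 10 fits that leave out a library. In bulk RNA, fewer cells of a type and less RNA per cell cannot be told apart, and the part of ImmAMs or other cells within the gate in these rises was not tested.

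**Figure D4:**
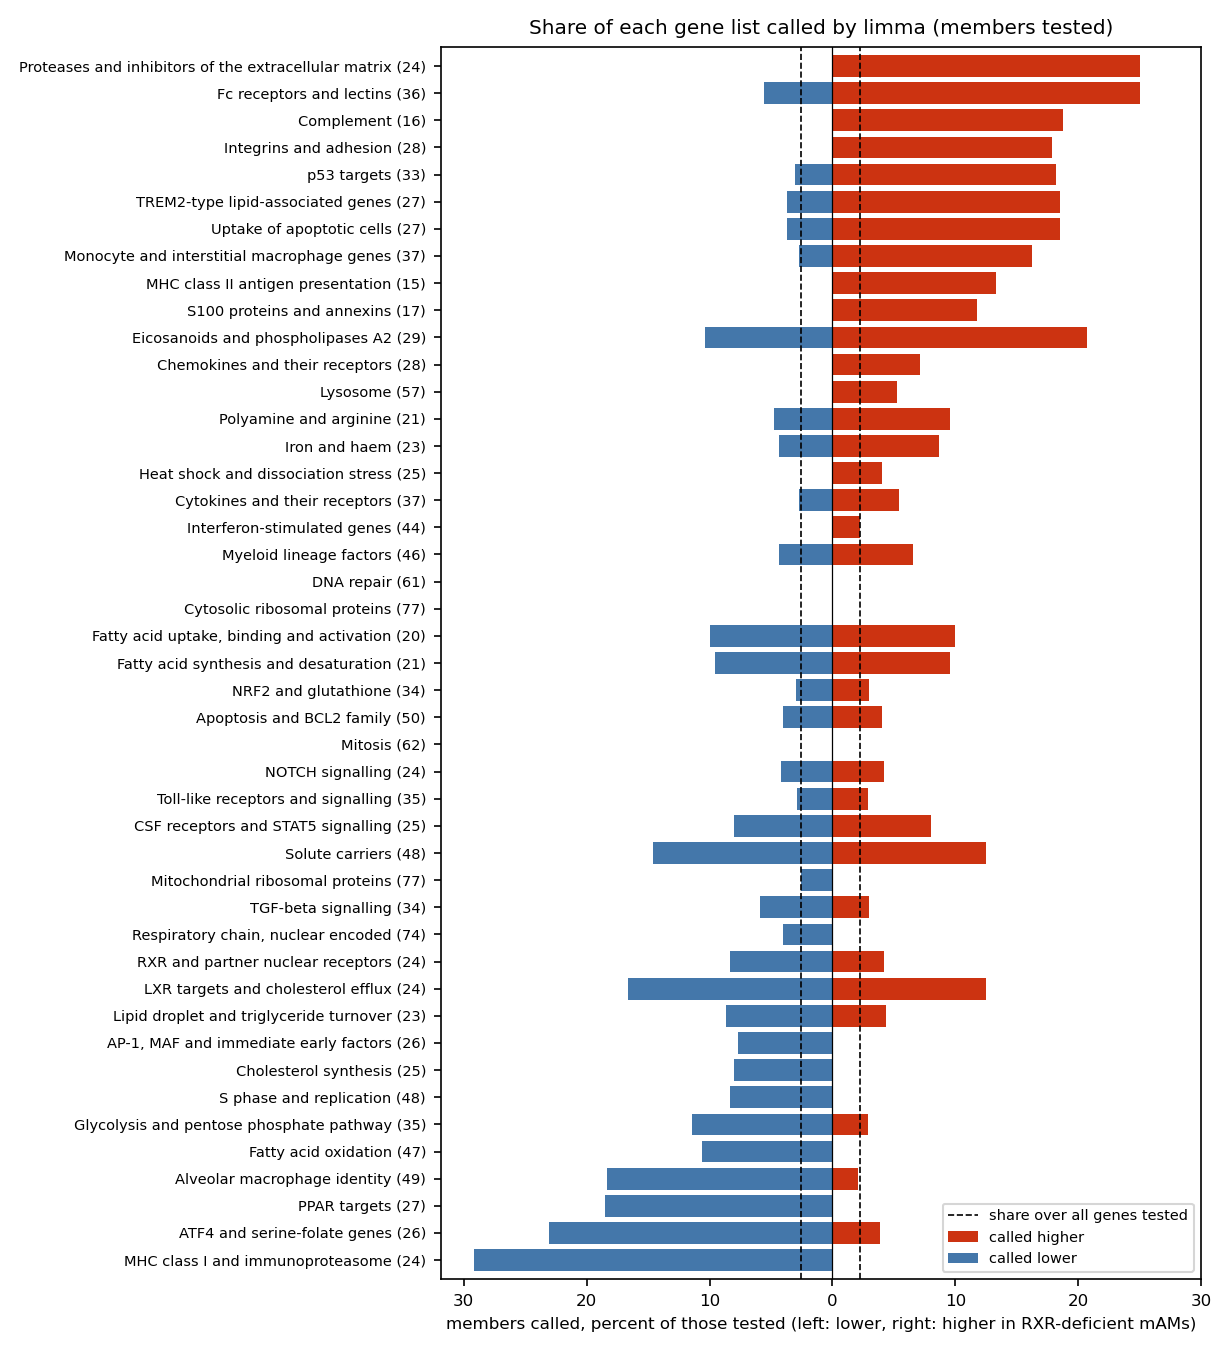
Members of each gene list called higher (right) and lower (left) in RXR-deficient mAMs, as a percentage of the members tested, whose number stands in brackets; lists with 10 or more members tested. Dashed lines are the shares over all genes, 2.25% higher and 2.59% lower. Matrix proteases and Fc receptors stand at the top, and MHC class I, ATF4 and PPAR target genes at the bottom.

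The place of the RXR-deficient mAMs between control mAMs and ImmAMs differed by gene. All 21 named genes with the largest rises were higher still in ImmAMs than in RXR-deficient mAMs in the same limma fit, in which both comparisons use the mAM_KO libraries. Of all genes tested, 2283 (17.7%) were higher and 2608 (20.2%) lower in ImmAMs than in RXR-deficient mAMs. On the CPM scale mAM_KO replicates 1 to 3 stood at 3.27%, 1.29% and 4.26% of the way from the control mean to the ImmAM mean for Mmp12, and at 11.8%, 5.22% and 19.8% for S100a6. They stood at 26.8%, 13% and 47.4% for Spint1 and at 46.6%, 22.2% and 59.2% for Pla2g2d. Within a library these shares thus differed between genes, and in each of the 4 genes replicate 2 had the smallest. Of the 19 named falls, 11 were lower still in ImmAMs, 2 were higher there and 6 did not pass the threshold. Krt79 stood at 73.8%, 40.6% and 83.5% of the way to the ImmAM mean of 6.54 CPM. Slc1a3, a glutamate carrier, was at 7.45, 2.61 and 7.51 CPM in RXR-deficient mAMs against 0.859, 1.87, 1.45 and 1.79 CPM in controls and 0.214 CPM on average in ImmAMs (adjusted p between the mAMs 0.0498), highest in the RXR-deficient mAMs. Slc1a3 was not called in the corrected fit (adjusted p = 0.0672), and its call held in 1 of the 10 fits that leave out a library.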

How the data were processed

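RNA was sequenced from flow-sorted alveolar macrophages. Per the labels and the study's methods, the authors used Cutadapt for trimming and RSEM 1.3.1 with the GRCm38 transcriptome for expected counts, dropped genes that did not reach 1 CPM in 3 samples, and deposited CPM on TMM-scaled library sizes. Each deposited CPM value was an odd multiple of a fixed step per library, so that whole reads were recovered for 100% of values within 0.01.

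Log2 of the deposited CPM, with nothing added, was fitted in limma 3.58.1 (R 4.3.3) with a mean for each of 3 groups over 10 libraries and a variance trend, for the genes that reached 1 CPM in 3 of these. edgeR 4.0.16 and DESeq2 1.42.0 were run on the recovered reads as alternatives. The corrected fit removed, in each library, a spline with 5 degrees of freedom on GC content and on log transcript length, fitted to genes at 5 CPM or more. Transcripts and 60-base windows were from GENCODE vM21 on GRCm38, where 12919 of the 12932 genes had a match. The limma and edgeR tests were tested on simulated data.

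Named genes were Rxra and Rxrb, the 12 largest rises and falls with a higher group mean of at least 5 CPM and the 10 largest with at least 100 CPM, among called genes without overlap, and called members of the lists. Some genes selected by this rule are not reported here. The comparison and the gene lists were chosen with earlier results of these data known. No label ties a replicate number to an animal, litter or day, and the libraries were treated as unpaired. Promoters were matched by symbol to RefSeq on GRCm38.p6, with the first listed start where a gene has several.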

Additional observations from a re-analysis of the deposited data

Results flagged for a closer look

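Among the named genes that fit the comparison, 86 groups of 4 libraries over 43 genes were screened for a library that stands apart (the gap to the nearest library, as a share of the range, above Dixon's 95% limit for 4 samples), and 2 were found. Chance flags about 1 in 20 groups, a rate for genes chosen without regard to these libraries. Both flags were mAM_KO replicate 4 among the RXR-deficient mAMs. Phlda3 was at 80.2 CPM there, against 49.8 to 50.7 CPM in replicates 1 to 3. Gm20458 was at 9.003 CPM, against 0.0212 to 0.0277 CPM in replicates 1 to 3, which is 0 reads in each, and its sequence is shared with other genes. Both genes were named from calls made with replicates 1 to 3 and without replicate 4. That choice favours a gap between replicate 4 and the others, so the rate of 1 in 20 does not apply to these 2 flags. The part of the choice in the 2 flags was not tested.

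mAM_KO replicate 4, which entered alternative fits and not the calls themselves, lay above every control library in 214 of the 290 genes called higher from replicates 1 to 3 (73.8%). It lay below every control library in 173 of the 334 called lower (51.8%). Over all genes it lay beyond the control range on the fitted side in 24.9%. These shares use the control libraries that also entered the calls.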

How the results depend on the processing

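Of the 160 called genes that could be named, 0 changed direction in any fit and 30 were called in every fit. The 624 calls (290 higher, 334 lower) became 337 with mAM_KO replicate 4 (132 lower), 195 with only the 2 groups in the fit (91 and 104), 122 without a variance trend (76 and 46), 1352 in DESeq2 (602 and 750), 315 at a fold of at least 1.5 (186 and 129), 1454 at an adjusted p under 0.1 (648 and 806), and 177 with the GC and length correction and only the 2 groups (93 and 84). The causes of these shifts, other than fewer samples or another threshold, were not tested. Leaving out 1 library at a time gave 162 to 861 calls, with 94 to 403 higher and 68 to 470 lower. Same-numbered mAM_KO and mAM_WT libraries did not deviate together (r of 0.0322, −0.092 and 0.00552 for replicates 1 to 3, across genes). So few pairs cannot exclude a pairing by litter or day, and same-numbered ImmAM and mAM_KO libraries were not checked. A replicate block gave 174 calls (109 and 65). The sign changed only for 2 genes that were not called, both near 0. Rxra was at −0.0029 with Xist as a covariate and between −0.048 and 0.049 on leaving out 1 library, and Eif2s3y at −0.010 with the GC and length correction, −0.020 with mAM_KO replicate 4 added and −0.0042 with only the 2 groups. Fits with a pseudocount, another filter or scaling, robust variance, Xist as a covariate, edgeR or limma-voom kept the 3 counts within 1.5 times. With 3 and 4 libraries a group, genes of few reads could not be ranked reliably, and the p-values measure the spread between these mice only.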
